A study of Mus musculus with 24 samples.

Results

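The genes described are the nuclear-encoded subunits and assembly factors of oxidative phosphorylation, taken as the single-name loci of the deposited table whose names begin with Nduf, Uqcr, Cox4 to Cox8, Atp5 or Sdha to Sdhd. The rule used names only, and found 93 loci of 31027 in the table, of which 30456 carry a single name. By role, 36 belong to complex I, 4 to complex II, 8 to complex III, 18 to complex IV and 15 to complex V, and 12 are assembly factors or relatives that are not subunits. Of the 93, 90 reached the mean of 1 FPKM needed for testing. FPKM is a count of sequenced fragments scaled by transcript length and library size. The other 3 are the complex IV isoform genes Cox4i2, Cox7b2 and Cox8c, and Cox7b2 was listed at 0 in all 24 libraries.

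The samples were livers of C57BL/6J mice on 1 of 2 diets, chow or high fat, which lasted 16 weeks, with 4 genotypes on each diet and 3 libraries per group. All mice, controls included, carried Alb-Cre, a transgene whose albumin promoter acts in hepatocytes. The control genotype had Alb-Cre alone. The Jnk1 genotype also had Jnk1flox/flox, the Jnk2 genotype Jnk2flox/flox, and the Jnk1Jnk2 genotype both. Jnk1 and Jnk2 are the kinase genes Mapk8 and Mapk9, and cells of the liver that do not express albumin should keep them. The labels do not state ages or whether replicates were separate mice, so p-values measure only the spread between these libraries, which may be technical.

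In oxidative phosphorylation, electrons from NADH enter complex I and electrons from succinate enter complex II. Both pass them through ubiquinone to complex III, then through cytochrome c to complex IV, which reduces oxygen. Complexes I, III and IV move protons out of the mitochondrial matrix, and complex V, the ATP synthase, uses their return to make ATP. Some core subunits are encoded in mitochondrial DNA and were not analysed here. Liver is rich in mitochondria, and oxidizes fatty acids through this chain. Several complex IV subunits come in pairs, one made in most tissues and the other in striated muscle or testis. Nuclear factors known to act on these genes include NRF1, GABP, the estrogen-related receptors and YY1.

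Promoters of 6 genes are shown for the members on which the results turn: Sdha, which fell in the high fat Jnk1Jnk2 livers, its complex II partners Sdhb and Sdhd, which rose, the complex I gene Ndufb7, and the isoform pair Cox6b1 and Cox6b2. Each is the 250 bases before the RefSeq start (GRCm38.p6), 5′ to 3′ on the gene's strand. Capitals mark matches on either strand to the NRF1 motif, which is GCGCA and GCGC with any 1 base between them, or to the GABP motif CCGGAAG.
Sdha, chr13:74350241-74350490, minus strand: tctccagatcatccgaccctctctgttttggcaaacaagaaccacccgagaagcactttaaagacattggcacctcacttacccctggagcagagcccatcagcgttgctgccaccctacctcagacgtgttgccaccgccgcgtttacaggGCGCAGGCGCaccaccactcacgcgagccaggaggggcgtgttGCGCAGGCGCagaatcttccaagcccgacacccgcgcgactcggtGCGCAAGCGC
Sdhb, chr4:140961021-140961270, plus strand: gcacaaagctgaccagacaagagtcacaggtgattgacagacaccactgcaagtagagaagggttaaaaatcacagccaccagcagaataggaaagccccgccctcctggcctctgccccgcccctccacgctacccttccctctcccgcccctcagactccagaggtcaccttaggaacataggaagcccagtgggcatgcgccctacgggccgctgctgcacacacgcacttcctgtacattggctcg
Sdhd, chr9:50603850-50604099, minus strand: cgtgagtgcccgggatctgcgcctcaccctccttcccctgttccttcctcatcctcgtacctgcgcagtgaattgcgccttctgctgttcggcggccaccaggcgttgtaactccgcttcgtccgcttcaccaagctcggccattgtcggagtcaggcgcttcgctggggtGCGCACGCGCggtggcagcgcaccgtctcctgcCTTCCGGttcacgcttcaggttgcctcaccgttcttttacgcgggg
Ndufb7, chr8:83566508-83566757, plus strand: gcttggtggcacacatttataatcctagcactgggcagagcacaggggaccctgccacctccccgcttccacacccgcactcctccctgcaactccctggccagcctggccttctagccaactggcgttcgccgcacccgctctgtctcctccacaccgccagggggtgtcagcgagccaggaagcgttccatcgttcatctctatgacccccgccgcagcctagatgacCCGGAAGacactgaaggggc
Cox6b1, chr7:30626115-30626364, minus strand: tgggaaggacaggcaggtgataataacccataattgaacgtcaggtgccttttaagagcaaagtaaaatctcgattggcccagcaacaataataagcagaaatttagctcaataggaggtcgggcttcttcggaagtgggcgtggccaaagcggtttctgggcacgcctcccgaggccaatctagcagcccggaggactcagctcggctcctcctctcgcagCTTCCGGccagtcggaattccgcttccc
Cox6b2, chr7:4753095-4753344, minus strand: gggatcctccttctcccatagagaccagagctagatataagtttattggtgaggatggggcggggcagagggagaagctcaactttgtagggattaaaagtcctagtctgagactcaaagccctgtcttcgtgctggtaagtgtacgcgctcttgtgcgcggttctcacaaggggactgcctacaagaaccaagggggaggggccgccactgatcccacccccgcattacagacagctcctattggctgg
The Sdha window holds the NRF1 letters at 3 places and Sdhd holds them together with the GABP letters. The windows of Sdhb and Cox6b2 as printed hold neither motif, and in Sdhb the GABP letters lie in the 50 bases after the start, so that it counts among the GABP matches below.

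Promoter windows from 250 bases before to 50 bases after the start were matched for 76 of the 90 tested members. The NRF1 letters were in 18 of the 76 (23.7%), against 11.3% of the 8016 tested loci with a window. The GABP letters were likewise in 18 members (23.7%), against 20.0% of all. AAGGTCA, the core of sites for the estrogen-related receptors, was in 8 members (10.5%) against 3.39% of all, and AAGATGGCG, the YY1 motif, in 7 (9.21%) against 3.59%. All were searched on both strands, and a GABP match can share its final AAG with a YY1 or receptor match. These are matches of letters and not measured binding.

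In chow control liver the tested members had a median level of 161 FPKM. The lowest was Cox6a2 at 0.161 FPKM and the highest Ndufa4 at 838 FPKM, a small subunit first assigned to complex I and now placed in complex IV. FPKM is a level per length, so genes were set side by side. The complexes differ in median transcript length, from 541 bases in complex III to 1186 in complex II. The part of length in their order was not tested. With every locus of a complex counted, complex III had the highest median, 310 FPKM, led by Uqcrq at 772 ± 20.1 FPKM (SD, n = 3). Complex V followed at 286 FPKM, with Atp5g3, a gene of the proton-carrying c-ring, at 712 FPKM and Atp5b, the catalytic beta subunit, at 536 FPKM. Complex IV stood at a median of 216 FPKM over its 18 loci, the 3 untested ones included, complex II at 156 FPKM and complex I at 122 FPKM. The complex IV median is lowered by 7 tissue isoforms, of which the 4 tested were at 0.161 to 4.53 FPKM. The other 11 subunits ran from 162 FPKM (Cox7b) to 838 FPKM (Ndufa4). Their middle value was that of Cox6b1, 380 FPKM, above the complex III median. The 12 assembly factors and relatives stood far lower, at a median of 9.18 FPKM, with Cox7a2l, which helps complexes III and IV associate, the highest at 102 FPKM.

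Within each isoform pair, the form made in most tissues was the higher one in chow control liver. Cox6a1 was at 655 FPKM and the muscle form Cox6a2 at 0.161 FPKM. Cox8a was at 527 FPKM and the muscle form Cox8b at 0.456 FPKM, and Cox7a2 was at 173 FPKM and the muscle form Cox7a1 at 4.53 FPKM. Cox6b1 was at 380 FPKM and Cox6b2, known from testis, at 3.25 FPKM. Cox4i1 was at 643 FPKM and the lung form Cox4i2 was listed at 0. Ndufa4l2, a hypoxia-induced relative of Ndufa4, was at 1.6 FPKM. The c-ring genes Atp5g1, Atp5g2 and Atp5g3, which encode the same mature protein, were at 160, 189 and 712 FPKM.

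Mapk8 ranged from 0.845 to 2.47 FPKM in the 12 libraries with its floxed allele and from 3.38 to 5.77 FPKM in the other 12, and Mapk9 from 4.33 to 7.79 FPKM against 9.01 to 12.0 FPKM. All 10 hepatocyte markers were above 0 in every library, with sums of 14489 to 43555 FPKM. The 3 high fat Jnk1Jnk2 libraries stood apart. Their FPKM summed to 849038 to 873399, against 634849 to 734352 in the other 21 libraries, and their deviation from the mean of all libraries fell with transcript length, with Spearman correlations across loci of -0.66 to -0.6 against -0.23 to 0.43. Depth relative to the deepest library was 0.3 to 0.73 in these 3 and 0.31 to 1 in the others, and the absolute depth is unknown. The tested members have a median transcript length of 743.5 bases, so this length trend touches them directly. The counts of members called in comparisons that use the high fat Jnk1Jnk2 libraries are therefore given as deposited and with the length trend removed from every library, beside the median change of loci of like length. In bulk tissue, fewer cells of a type and less RNA per cell cannot be told apart.

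**Figure D1:**
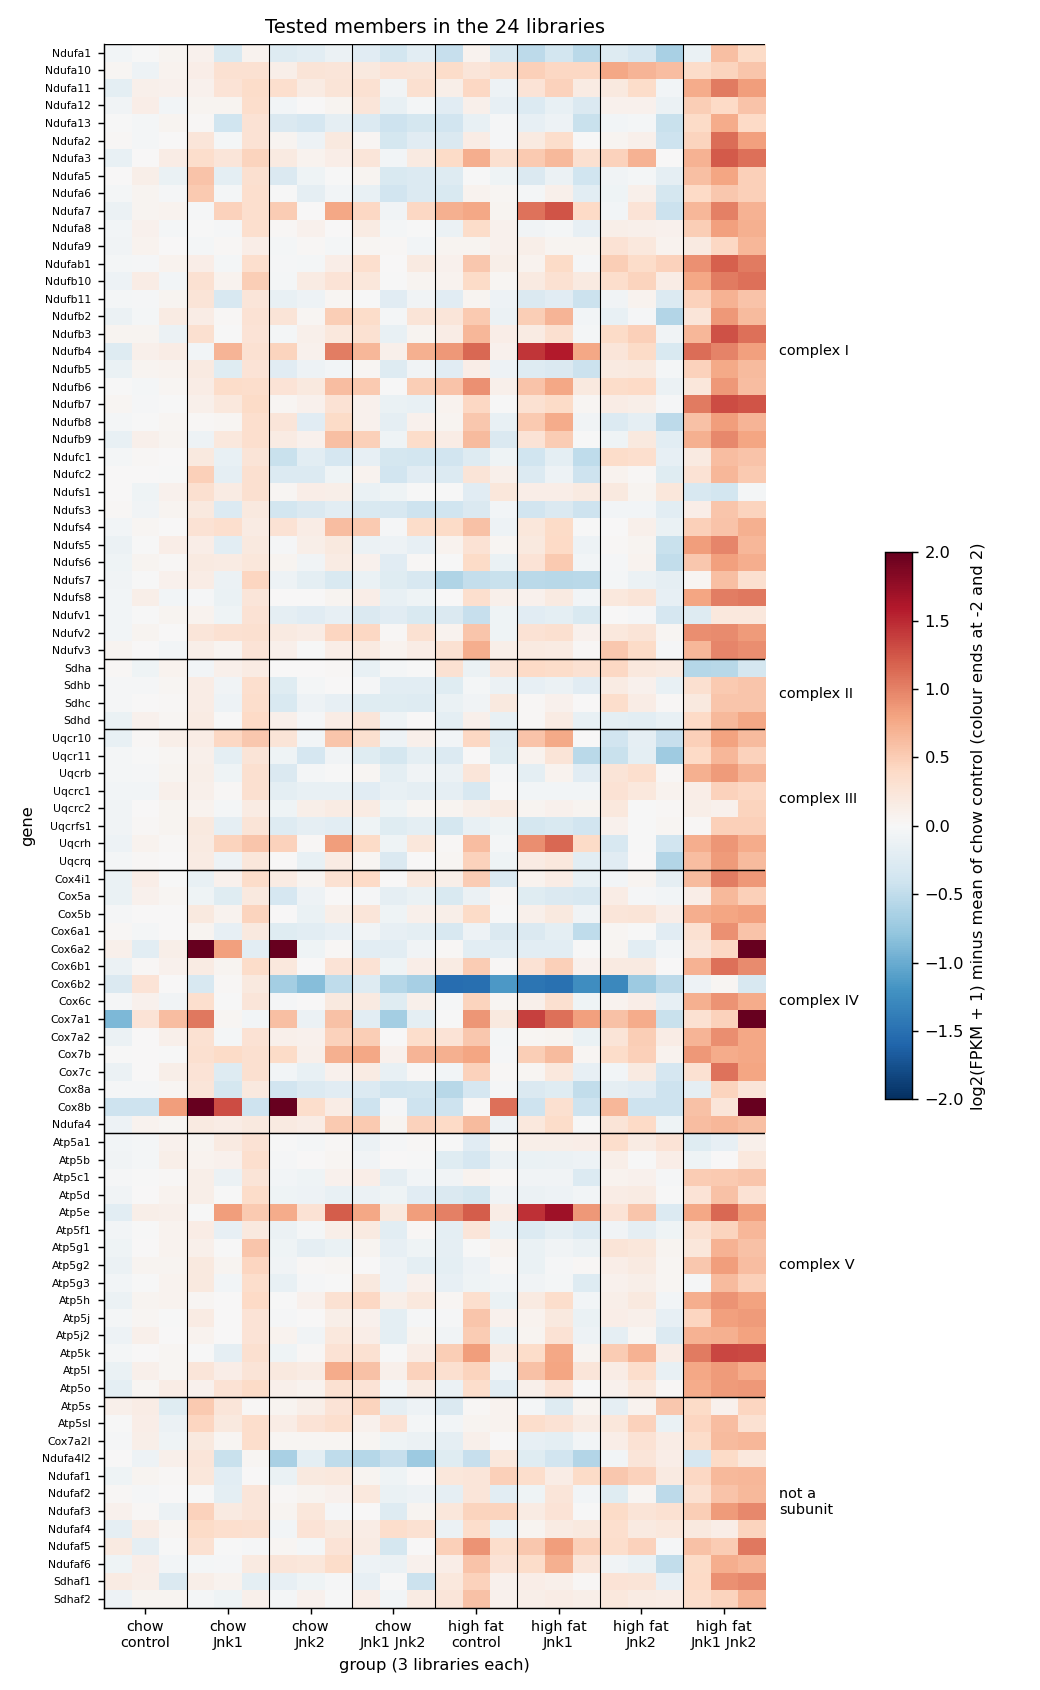
Rows are 89 of the 90 tested members, ordered by complex, and each column is 1 of the 24 libraries, 3 per group. Colour gives log2(FPKM + 1) minus the mean of the 3 chow control libraries, and the high fat Jnk1Jnk2 columns are red in most rows, with Sdha blue.

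On the high fat diet, most members were higher in Jnk1Jnk2 livers than in control livers. By limma on log2(FPKM + 1), with Benjamini-Hochberg adjustment over all 10562 tested loci, 67 of the 90 rose, 1 fell and 22 did not pass an adjusted p of 0.05. Over all tested loci 19.6% rose and 31.6% fell. The median change of the members was 0.56 on the log2 scale, against -0.07 over all tested loci. The groups did not overlap, with all Jnk1Jnk2 libraries higher, at 60 members, against 19.7% of all tested loci. Of the 90, 78 had their highest group mean in the high fat Jnk1Jnk2 livers, a count with no share over other loci beside it. The summed FPKM of the members was 25798 to 31677 in these libraries against 16522 to 23668 in the other 21, while their share of all FPKM was 3.04 to 3.63% against 2.33 to 3.46%, ranges that overlap.

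Loci of like length moved in the same direction. Of the 2410 other single-name tested loci with a transcript of 421 to 1718 bases, the span of the members' 10th to 90th percentile, 49.3% rose and 4.07% fell. Against the other loci within 1.1 times its own length, a member's change was larger by a median of 0.115, and 65 of 90 members lay above their like-length median. Taking the 3 Jnk1Jnk2 libraries one at a time, this median difference was 0.095, 0.135 and 0.143. With a like level required as well, the difference was 0.065 and 53 of 89 members lay above. After the length trend was removed, 21 members rose and 2 fell, with a median change of 0.11, against 16.9% and 16.2% over all loci with a length and 14.2% and 12.7% over loci of member length. Of the 68 members called as deposited, 20 were called in the same direction with the length trend removed.

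**Figure D2:**
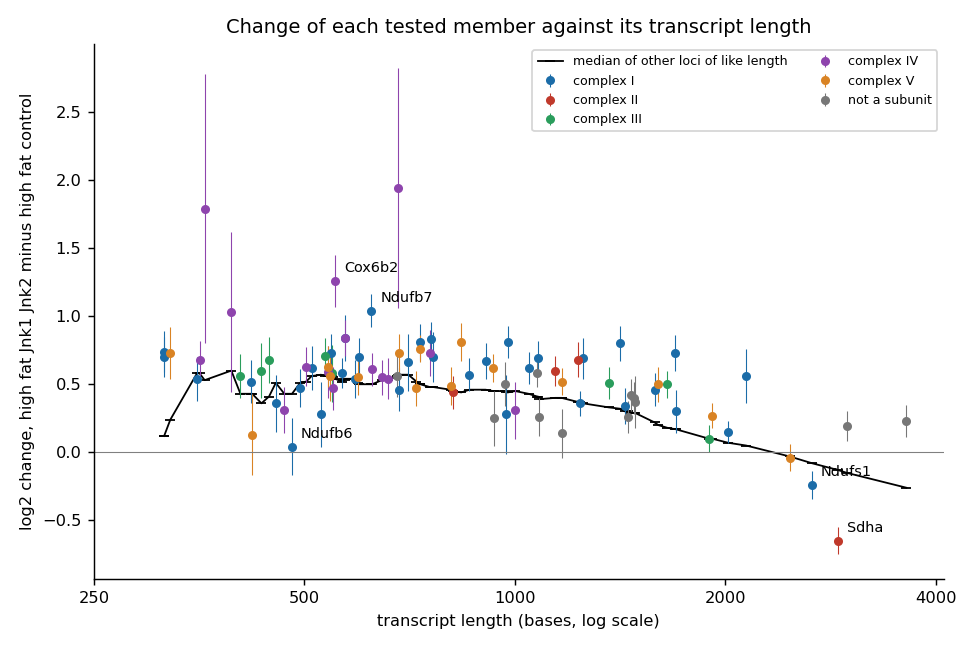
The horizontal axis is transcript length in bases on a log scale and the vertical axis the log2 change of each tested member, high fat Jnk1Jnk2 minus high fat control, with its SE, coloured by complex. The black line is the median change of other loci within 1.1 times that length, which most members follow, with Sdha at -0.65 below it and Ndufb7 at 1.04 above it.

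Complex II split. Sdha, the flavoprotein that oxidizes succinate, had 142, 106 and 136 FPKM in the high fat control libraries and 76.8, 77.3 and 89.1 FPKM in the high fat Jnk1Jnk2 libraries. The groups did not overlap, and the Jnk1Jnk2 values were the lowest 3 of all 24. Sdha fell by 0.65 ± 0.10 on the log2 scale (limma, adjusted p = 4.24e-05), and its like-length loci had a median of -0.13. The fall was 0.52 ± 0.09 with the length trend removed (limma, adjusted p = 0.000225).

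The other 3 subunits of the complex rose as deposited. Sdhb, the iron-sulfur subunit, had 145, 166 and 157 FPKM in control and 213, 245 and 252 FPKM in Jnk1Jnk2 libraries, with a change of 0.60 ± 0.11. Sdhd, a membrane anchor, had 151, 185 and 156 FPKM in control and 228, 270 and 295 FPKM in Jnk1Jnk2 libraries, with a change of 0.68 ± 0.13. Both groups of values were separate, and both rises held their call with the length trend removed, at 0.23 and 0.34. Sdhc, the other anchor, rose by 0.44 ± 0.12 as deposited and changed by -0.03 with the trend removed. No other complex had a member that fell as deposited.

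In complex I, 29 of 36 members rose as deposited and none fell, and 10 rose and 1 fell with the length trend removed. For this and the other complexes, 19.6% of all loci rose as deposited and 16.9% with the trend removed. Over loci of member length the shares that rose were 49.3% and 14.2%. Ndufb7, an accessory subunit of the membrane arm, had 128, 162 and 121 FPKM in control and 249, 300 and 293 FPKM in Jnk1Jnk2 libraries. The 3 Jnk1Jnk2 values were the highest of all 24 libraries, and the change was 1.04 ± 0.12 (limma, adjusted p = 2.46e-06), or 0.50 with the length trend removed (adjusted p = 0.000161). Of the 7 core subunits, 6 rose. Ndufv2, an iron-sulfur core subunit of the NADH-oxidizing end, had 70.2, 99.1 and 62.6 FPKM in control and 128, 130 and 122 FPKM in Jnk1Jnk2 libraries. Ndufs7 and Ndufs8, core subunits that carry iron-sulfur centers next to the ubiquinone site, rose by 0.83 ± 0.13 and 0.81 ± 0.12. Among the core subunits, Ndufv2, Ndufs7 and Ndufs8 were also called with the length trend removed, at 0.54, 0.33 and 0.39.

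Ndufs1, the largest core subunit, was the exception. It had 36.6, 31.1 and 43.0 FPKM in control and 29.3, 28.1 and 35.6 FPKM in Jnk1Jnk2 libraries, values that overlap. Its change was -0.24 ± 0.10 (limma, adjusted p = 0.055), beside -0.08 for its like-length loci. Its locus shares 14704 bases with the locus Gm11602, and how reads of overlapping loci were assigned is not given in the sources used here. It was called lower without high fat control replicate 2 or high fat Jnk1Jnk2 replicate 3, at -0.35 and -0.34, and with quantile normalization, at -0.33. Over its alternatives the adjusted p ran from 0.00607 to 0.311. Among supernumerary subunits, Ndufab1, the mitochondrial acyl carrier protein, rose by 0.80 ± 0.13 and by 0.52 with the length trend removed. Ndufa9, a matrix-arm subunit, rose by 0.36 ± 0.09 as deposited and had a change of 0.02 with the trend removed. Ndufb6 had a change of 0.04 ± 0.21 as deposited, beside 0.43 for its like-length loci, and fell by 0.53 with the trend removed (limma, adjusted p = 0.00853).

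In complex III, 7 of 8 members rose as deposited and the other, Uqcrc2, had a change of 0.10 ± 0.10. With the length trend removed 2 rose. Uqcrc1, a core protein of the matrix side, had 113, 103 and 127 FPKM in control and 140, 176 and 172 FPKM in Jnk1Jnk2 libraries, which did not overlap. Its rise was 0.50 ± 0.10 (limma, adjusted p = 0.000406) and 0.30 with the length trend removed. Uqcrfs1, the Rieske iron-sulfur protein, rose by 0.51 ± 0.12 and by 0.22. Uqcrb, a small subunit near the ubiquinone site, rose by 0.71 ± 0.13 as deposited and had a change of 0.15 with the trend removed that was not called.

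In complex IV, 10 of 15 tested members rose as deposited and 2 with the length trend removed. Cox6a1 had 522, 613 and 534 FPKM in control and 807, 1236 and 978 FPKM in Jnk1Jnk2 libraries, with no overlap. It rose by 0.84 ± 0.13 (limma, adjusted p = 3.94e-05) and by 0.29 with the length trend removed. Cox4i1, which binds ATP as part of the regulation of the enzyme, rose by 0.73 ± 0.17 and Cox5a by 0.55 ± 0.13 as deposited. Neither was called with the trend removed, at 0.24 and 0.02. Of the complex IV members, Cox6a1 and Cox6b2 were the 2 called on both scales.

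In complex V, 13 of 15 members rose as deposited and 2 with the length trend removed. Atp5g2 had 164, 176 and 191 FPKM in control and 275, 338 and 291 FPKM in Jnk1Jnk2 libraries, without overlap, and rose by 0.76 ± 0.10 and by 0.26 with the length trend removed. The other c-ring genes Atp5g1 and Atp5g3 rose by 0.55 ± 0.13 and 0.47 ± 0.13 as deposited and had changes of 0.00 and -0.04 with the trend removed. The Atp5g3 call was lost without high fat Jnk1Jnk2 replicate 2, at 0.33. Atp5o, a stalk subunit, rose on both scales, by 0.81 ± 0.14 and 0.35. Atp5b rose by 0.27 ± 0.09 and Atp5j, the coupling factor of the stalk, by 0.49 ± 0.14 as deposited, and neither was called with the trend removed. The Atp5j call was lost without high fat control replicate 1, at 0.38, and the Atp5b call without high fat control replicate 2 or high fat Jnk1Jnk2 replicate 3, at 0.22 and 0.19. With quantile normalization the change of Atp5b was -0.04. Atp5a1, the alpha subunit and one of the longest transcripts here, had a change of -0.04 ± 0.10, and of -0.30 with quantile normalization, which was called.

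Of the 12 loci that are not subunits, 5 rose as deposited and 3 with the length trend removed. The 5 include Cox7a2l at 0.58 ± 0.10, which also passed with the length trend removed at 0.19. Ndufaf4 and Sdhaf2, assembly factors of complexes I and II with long transcripts, had changes of 0.23 and 0.19 as deposited and rose by 0.49 and 0.33 with the length trend removed. Without high fat control replicate 2 both were also called as deposited, at 0.39 and 0.33.

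**Figure D3:**
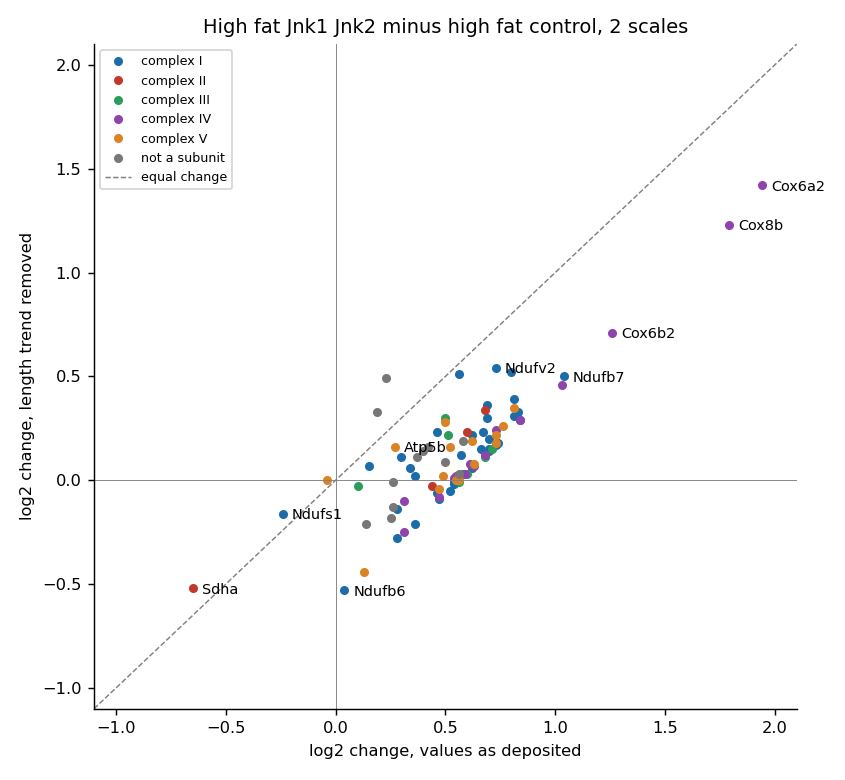
Each point is a tested member, with its log2 change (high fat Jnk1Jnk2 minus high fat control) as deposited on the horizontal axis and with the length trend removed on the vertical axis, coloured by complex. Most points lie below the dashed line of equal change, and Sdha lies low on both axes at -0.65 and -0.52.

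Against the single knockouts on high fat, which share the Jnk1Jnk2 libraries with the comparison above, 65 members rose and 2 fell relative to Jnk1 (22.9% and 33.8% of all loci). Relative to Jnk2, 66 rose and 4 fell (15.3% and 33.2%). With the length trend removed the counts were 22 and 11 against Jnk1 (18.5% and 19.3% of all loci) and 14 and 6 against Jnk2 (11.1% and 12.7%). The median change of the members was 0.62 against Jnk1 and 0.59 against Jnk2 as deposited, where the loci within 1.1 times their length had medians of 0.535 and 0.478. Sdha had 151, 148 and 141 FPKM in Jnk1 and 153, 133 and 130 FPKM in Jnk2 libraries, all above the 3 Jnk1Jnk2 values. It fell by 0.85 ± 0.10 against Jnk1 and by 0.77 ± 0.10 against Jnk2, and Ndufs1 fell by 0.39 ± 0.10 and 0.40 ± 0.10. Ndufb7 rose by 0.96 ± 0.12 and 1.13 ± 0.12. These 6 changes were also called with the length trend removed, at -0.72 and -0.56 for Sdha, -0.31 and -0.24 for Ndufs1, and 0.34 and 0.53 for Ndufb7. The other 2 members that fell against Jnk2 were Atp5a1, by 0.36, and Ndufa10, an accessory subunit of complex I, by 0.23. The Ndufa10 call was lost with size factors, at -0.09, and without high fat Jnk2 replicate 1 or high fat Jnk1Jnk2 replicate 1, at -0.18 in both. Of the 10 subunits fixed by name to stand for the 5 complexes (Ndufs1, Ndufa9, Sdha, Sdhb, Uqcrc1, Uqcrb, Cox4i1, Cox5a, Atp5b and Atp5j), 7 rose and 2 fell against Jnk1, and 5 rose and 2 fell against Jnk2.

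Between the diets, Jnk1Jnk2 livers had 70 members higher and 1 lower on high fat than on chow (30.1% and 26.8% of all loci), with a median change of 0.62. Of the other loci of member length 64.4% rose and 3.28% fell, and loci within 1.1 times a member's length had a median change of 0.575. With the length trend removed, 12 members rose and 7 fell (20.3% and 20.2% of all loci), and the median was 0.03. Sdha fell from 103, 111 and 114 FPKM on chow, by 0.43 ± 0.10, and by 0.41 with the trend removed (limma, adjusted p = 0.00111). Ndufb7 rose from 129, 110 and 109 FPKM on chow, by 1.27 ± 0.12 and by 0.57 with the trend removed. The core subunit Ndufs8 rose from 80.9, 66.2 and 68.9 FPKM to 128, 150 and 153 FPKM, by 0.99 ± 0.12 and by 0.42. Ndufa2, an accessory subunit of the matrix arm, rose by 0.98 ± 0.17 and by 0.26. Of the 10 subunits fixed by name 7 rose and Sdha fell, with Ndufs1 at -0.17 and Atp5b at 0.07. Ndufb6 had a change of 0.23 ± 0.21 as deposited and fell by 0.50 with the trend removed (limma, adjusted p = 0.00956).

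The diet effect itself differed between Jnk1Jnk2 and control livers at 52 members by the interaction term of the fit. Signed as high fat minus chow, it was more positive in Jnk1Jnk2 at 51 and more negative at 1 (15.8% and 19.1% of all loci). With the length trend removed 11 and 4 passed (10.5% and 10.3%). The median difference was 0.58 over the members and 0.513 over loci of like length. Sdha was the single member in the negative direction as deposited, at -0.58 ± 0.14 (limma, adjusted p = 0.0049), and was at -0.53 with the trend removed. The 12 members called the same way on both scales include the complex I core subunits Ndufs3, Ndufs7 and Ndufs8, with Ndufs7 at 1.06 ± 0.18, and Ndufb7 and Uqcrc1 at 1.11 ± 0.17 and 0.69 ± 0.14.

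In control livers the diet changed few members. On high fat 3 rose and 2 fell (10.1% and 6.19% of all loci), with a median change of 0.08. Ndufs7 had 117, 122 and 130 FPKM on chow and 80.3, 87.8 and 90.2 FPKM on high fat. The diets did not overlap, and Ndufs7 fell by 0.51 ± 0.13 (limma, adjusted p = 0.0101), or by 0.63 with the length trend removed. Its locus, like that of Atp5d, lies within the span of the locus Bc1, and 15 of the 93 member loci overlap another locus. Ndufa10 rose by 0.31 ± 0.08, from 66.3, 60.2 and 67.8 FPKM to 83.6, 77.0 and 80.7 FPKM. This call was lost without chow control replicate 2, at 0.26. The assembly factors Ndufaf3 and Ndufaf5 rose by 0.37 ± 0.12 and 0.58 ± 0.18, calls that leaving out single libraries ended (at 0.31 to 0.41 in 5 of 6 cases for Ndufaf3 and at 0.42 to 0.63 in 4 of 6 for Ndufaf5). With the length trend removed 15 members fell, among them Cox6a1, Ndufs3, Ndufv1, Uqcrc1 and Sdhb, and 5 rose, against 11.3% and 10.3% of all loci. Size factors gave 5 falls and 2 rises and quantile normalization 8 falls and 4 rises, so the balance of calls turned with the scaling. Without high fat control replicate 3 the count of calls was 14, and without chow control replicate 2 it was 2. Cox6b2 and Ndufs7 were called without each of the 6 libraries in turn.

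In Jnk1 livers 10 members fell and 1 rose on high fat (5.81% and 9.22% of all loci), the reverse of the order over all loci. Ndufs7 had 136, 113 and 166 FPKM on chow and 83.8, 83.6 and 84.4 FPKM on high fat, and fell by 0.70 ± 0.13, a fall called without each of the 6 libraries in turn. Uqcrfs1 fell by 0.43 ± 0.12, from 200, 154 and 209 FPKM to 137, 141 and 134 FPKM. The other falls were 0.28 to 0.51 at Ndufa5, Ndufc1, Ndufb5, Ndufa12, Ndufs3, Cox7a2l and Atp5b, and Cox6b2 is described further on. Each of these falls except those of Ndufs7 and Cox6b2 lost its call without 3 or more of the 6 libraries in turn. Ndufb4, an accessory subunit, rose by 0.95 ± 0.29, lost in 4 of 6 cases. With size factors 19 fell and none rose, and with the length trend removed 19 fell and 7 rose (9.07% and 9.65% of all loci). Without chow Jnk1 replicate 3 or high fat Jnk1 replicate 1 the count was 2, and without chow Jnk1 replicate 2 the count was 25. By limma, 0 members had a diet effect called as different between Jnk1 and control livers, where 5 had an unadjusted p under 0.05 and 0.0% of all loci were called.

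In Jnk2 livers 7 members rose and 3 fell on high fat (19.7% and 6.39% of all loci). Here the median change over all loci was 0.10, and -0.01 with size factors, under which 1 member rose and 5 fell. With quantile normalization 9 rose and 7 fell, and with the length trend removed 7 rose and 9 fell (12.7% and 10.5%). Ndufa10 rose by 0.48 ± 0.08, from 70.3, 77.9 and 76.9 FPKM to 111, 104 and 99.3 FPKM. Ndufaf6, an assembly factor of complex I, fell by 0.51 ± 0.14, from 12.8, 12.6 and 14.0 FPKM to 10.1, 9.56 and 7.29 FPKM, a call that was lost without high fat Jnk2 replicate 3, at -0.38. Uqcrh and Uqcr10, small subunits of complex III, fell by 0.67 ± 0.21 and 0.59 ± 0.20, both lost in 4 of the 6 fits that leave out a library. The diet effect differed from that in control livers at 5 members (6.18% of all loci more positive and 3.33% more negative). Signed as high fat minus chow, it was more positive in Jnk2 at Cox6b2, Ndufc1, Ndufs7 and Uqcrc1. At Ndufaf6 it was more negative, with a difference of -0.83 ± 0.19. Cox6b2 and Ndufaf6 were called without each of the 12 libraries in turn, and the other 3 were not. With the length trend removed 8 and 4 members passed (5.29% and 4.67%).

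On high fat, Jnk2 livers had 6 members higher and 1 lower than control livers (7.45% and 4.96% of all loci). Ndufa10 rose by 0.38 ± 0.08, Ndufs7 by 0.39 ± 0.13, Uqcrc1 by 0.35 ± 0.10, and the catalytic-head subunits of complex V, Atp5a1, Atp5b and Atp5d, by 0.33, 0.31 and 0.34. Atp5b had 452, 424 and 493 FPKM in control and 579, 535 and 586 FPKM in Jnk2 libraries, and Atp5a1 had 309, 266 and 319 FPKM against 397, 347 and 377 FPKM. Neither pair of groups overlapped. Ndufaf6 fell by 0.56 ± 0.14, a call that was lost, at -0.43, without high fat control replicate 2 or high fat Jnk2 replicate 3. With the length trend removed 7 rose and 2 fell (7.86% and 6.0%). In a fit of the 6 libraries compared alone, 0 members were called, and leaving out 1 library left between 2 (without high fat control replicate 2) and 12 (without high fat control replicate 3). Ndufa10 was called without each of the 6 libraries in turn. Each of the other rises was lost without at least 3 of them.

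No member was called in 4 comparisons by limma, with the length trend removed or not. These were chow Jnk1, chow Jnk2 and chow Jnk1Jnk2 against chow control, where 9, 7 and 10 members had an unadjusted p under 0.05, and high fat Jnk1 against high fat control, where 2 had. Few loci of the whole table were called in these comparisons: 2.2%, 0.454% and 0.161% on chow, in that order, and 0.227% in high fat Jnk1. In chow Jnk1 livers 84 of 90 members had a change above 0, with a median of 0.15 against 0.01 over all loci and 0.07 over loci of like length. The members' median was 0.08 with the length trend removed. In the same livers 17 members did not overlap with control, all higher, against 9.7% of all loci. Without overlap, 12 members were higher and 18 lower in chow Jnk2 livers, and 7 higher and 16 lower in chow Jnk1Jnk2 livers. In high fat Jnk1 livers 3 were higher and 1 lower. The shares of all loci beside these further counts are not given here. Ndufa10 had a change of 0.25 ± 0.08 in Jnk1, 0.21 ± 0.08 in Jnk2 and 0.25 ± 0.08 in Jnk1Jnk2 chow livers, none called, and the 3 comparisons share the chow control libraries. The 10 subunits fixed by name had changes between -0.19 and 0.27 in these 4 comparisons.

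**Figure D4:**
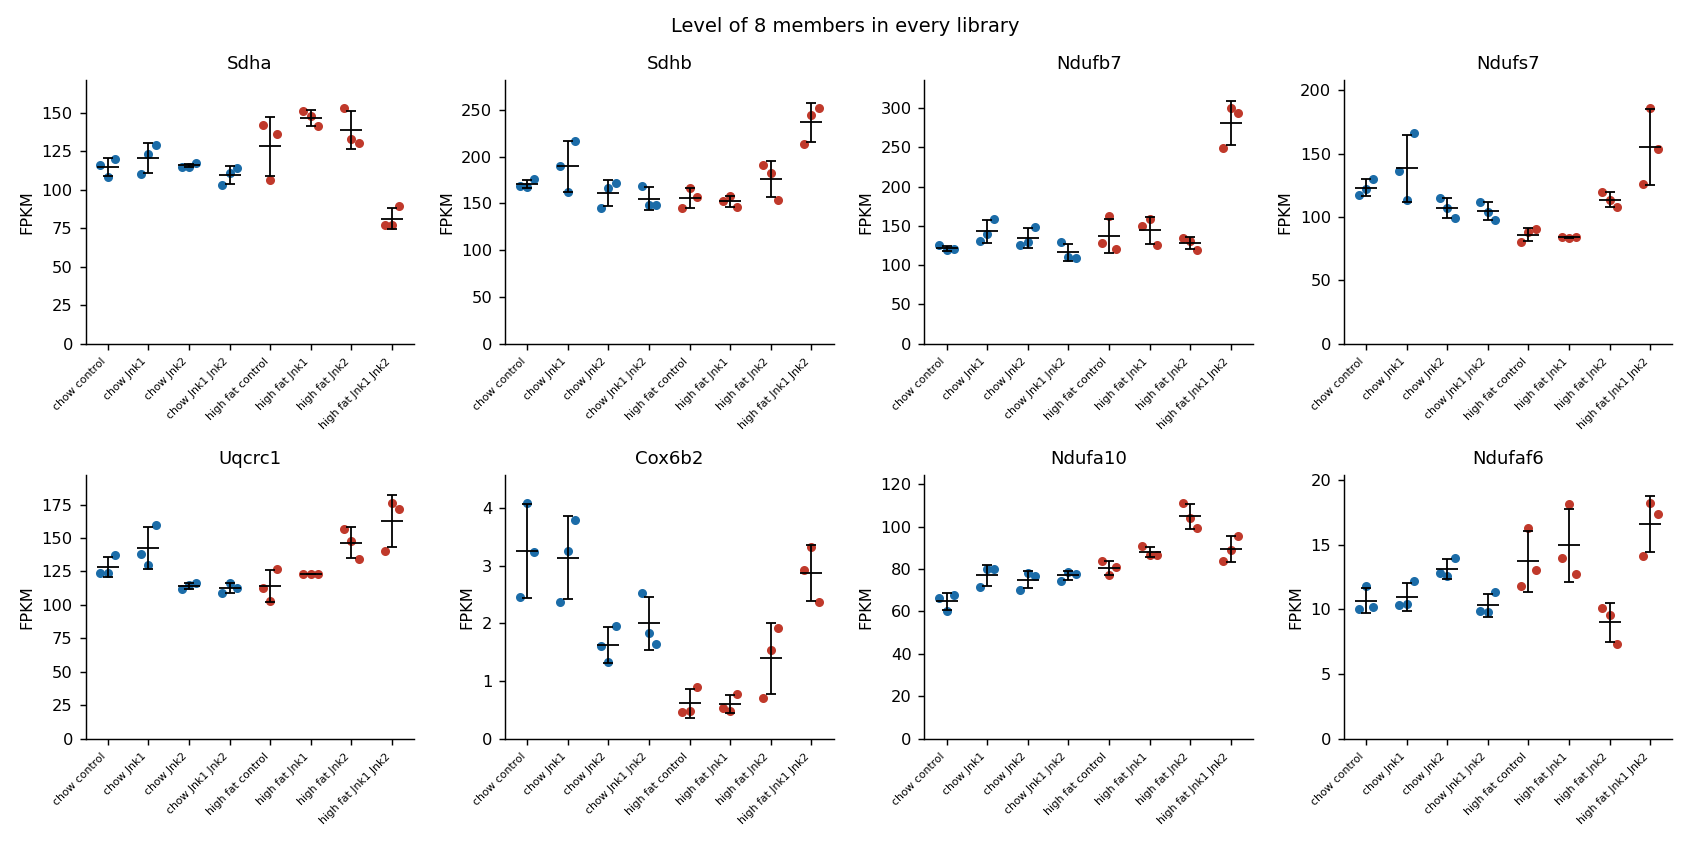
Points are FPKM in each of the 24 libraries for 8 members, blue for chow and red for high fat, with the group mean and SD in black. Sdha is lowest and Ndufb7 highest in the 3 high fat Jnk1Jnk2 libraries, and Cox6b2 is low in high fat control and Jnk1 livers.

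Cox6b2 had the largest fall on high fat among the members in control and in Jnk1 livers. It was at 2.45, 4.08 and 3.23 FPKM in chow control and at 0.467, 0.476 and 0.896 FPKM in high fat control libraries. In Jnk1 livers it was at 2.36, 3.26 and 3.79 FPKM on chow and at 0.534, 0.486 and 0.779 FPKM on high fat. The falls were 1.39 ± 0.19 (limma, adjusted p = 9.69e-05) and 1.36 ± 0.19 (limma, adjusted p = 0.000139), which understate the change at so low a level. In high fat Jnk1Jnk2 livers it was at 2.92, 3.32 and 2.36 FPKM, values that overlap with those of the chow control libraries, and rose by 1.26 ± 0.19 over high fat control (limma, adjusted p = 2.98e-05), or by 0.71 with the length trend removed. In Jnk2 livers it was at 1.61, 1.33 and 1.95 FPKM on chow and at 0.711, 1.54 and 1.92 FPKM on high fat, which overlap. Signed as high fat minus chow, the diet effect was more positive in Jnk2 and Jnk1Jnk2 livers than in control. The differences were 1.22 ± 0.27 in Jnk2 and 1.76 ± 0.27 in Jnk1Jnk2 livers (limma, adjusted p = 0.0104 and 0.000173). In Jnk2 livers this meant a smaller change on high fat than the fall in control. Its partner in the same subunit position, Cox6b1, stood at 351 to 813 FPKM in all libraries, so Cox6b2 was a small fraction of the pair throughout.

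The muscle forms of complex IV were high in single libraries. High fat Jnk1Jnk2 replicate 3 had 30.4 FPKM of Cox6a2, 50.2 FPKM of Cox8b and 52.0 FPKM of Cox7a1. The other 2 libraries of that group had 0.369 and 0.532 FPKM of Cox6a2, 0.993 and 0.576 FPKM of Cox8b, and 5.21 and 5.95 FPKM of Cox7a1. Chow Jnk1 replicate 1 and chow Jnk2 replicate 1 came next, with 6.17 and 6.02 FPKM of Cox6a2 and 8.81 and 6.80 FPKM of Cox8b. The changes of 1.03 to 1.94 in high fat Jnk1Jnk2 livers had SEs of 0.59 to 0.99 and were not called. Against chow Jnk1Jnk2, Cox7a1 was called higher, at 1.75 ± 0.59 (limma, adjusted p = 0.0163), and at 0.74 (adjusted p = 0.152) without replicate 3. Without chow Jnk1Jnk2 replicate 2 its adjusted p was 0.0566, and its range over the alternatives was 0.00415 to 0.158.

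Markers of striated muscle were high in the same libraries. Acta1, skeletal muscle actin, was at 213 FPKM in high fat Jnk1Jnk2 replicate 3, at 48.5 FPKM in chow Jnk1 replicate 1 and at 48.2 FPKM in chow Jnk2 replicate 1, and at 12.4 FPKM or less in the other 21. The 7 muscle markers summed to 0.263 to 565 FPKM in the high fat Jnk1Jnk2 group and to 0.436 to 1.17 FPKM in chow control. Without replicate 3 of high fat Jnk1Jnk2, 61 members rose and 2 fell against high fat control as deposited. With all 3 libraries 67 rose and 1 fell, where 19.6% and 31.6% of all loci did. Markers of macrophages and Kupffer cells summed to 348 to 474 FPKM in high fat Jnk1Jnk2 and to 247 to 285 FPKM in high fat control, with 4 of 9 tested called higher and none lower. The 5 markers of cholangiocytes summed to 35.1 to 62.8 FPKM against 18.2 to 25.4 FPKM, with 1 of 2 tested called higher. The 6 endothelial markers summed to 66.0 to 79.5 FPKM against 47.6 to 52.6 FPKM, with 1 called higher and 2 lower. Beside these calls too, 19.6% of all loci rose and 31.6% fell as deposited. The sums of hepatocyte, stellate, lymphocyte, neutrophil, adipocyte and erythroid markers overlapped between high fat Jnk1Jnk2 and high fat control. The part of these cell types in the members' changes was not tested.

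**Figure D5:**
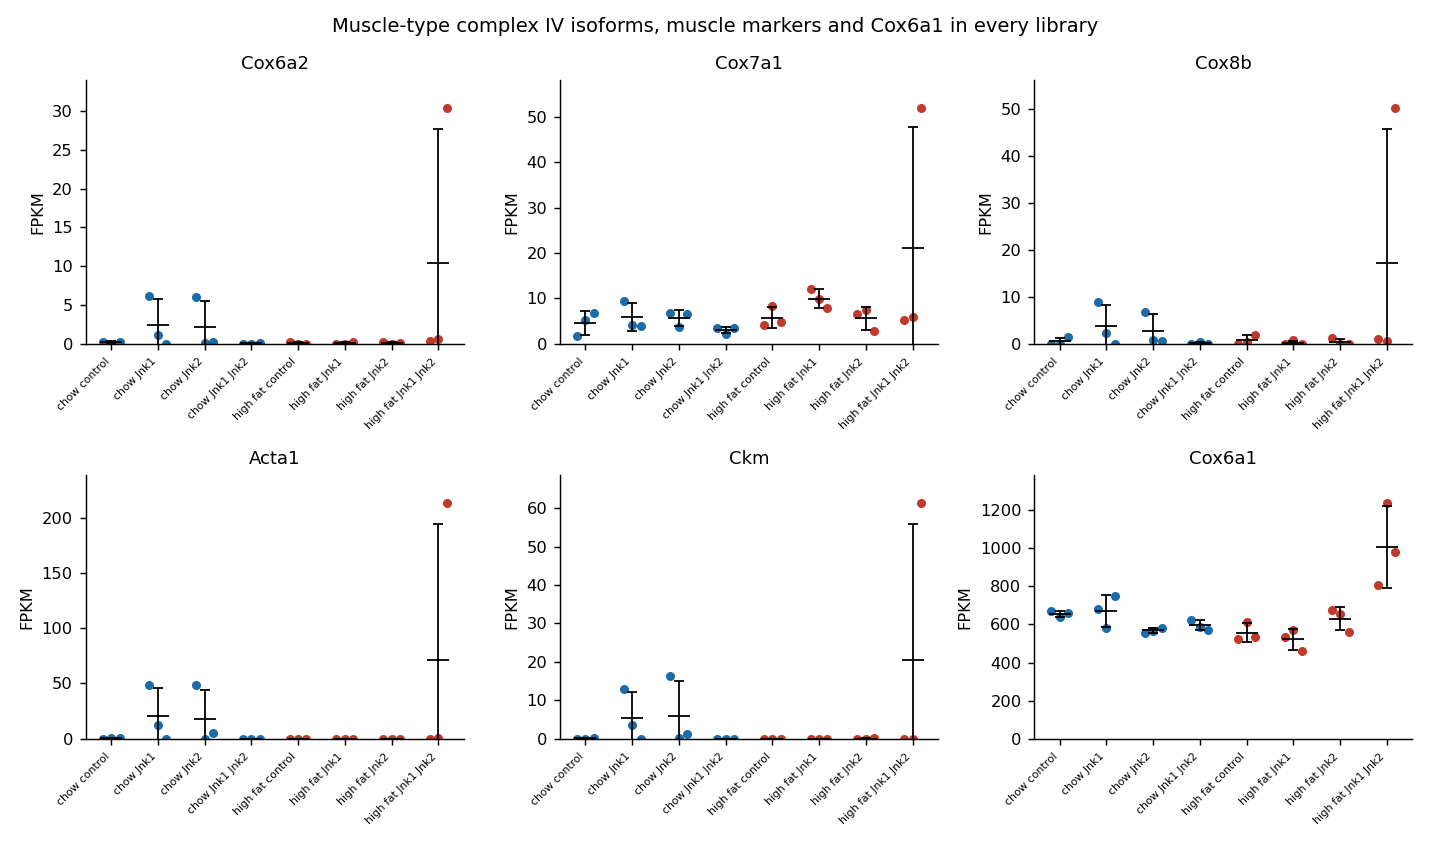
Points are FPKM in each of the 24 libraries for the muscle-type isoforms Cox6a2, Cox7a1 and Cox8b, the muscle markers Acta1 and Ckm, and the ubiquitous isoform Cox6a1, with the group mean and SD (lower ends below 0 not drawn). High fat Jnk1Jnk2 replicate 3 holds the highest value in all panels except that of Cox6a1.

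Apart from the isoforms, the members that varied most between libraries of 1 group were Atp5e, the epsilon subunit of ATP synthase, Ndufb4 and Ndufa7. Their pooled within-group SDs were 0.40, 0.38 and 0.32 on the log2 scale, against a median of 0.17 over the 90 members. Atp5e had 1279, 1468 and 703 FPKM in high fat control and 1744, 2050 and 1160 FPKM in high fat Jnk1 libraries. Ndufb4 moved with it: it had 483, 582 and 278 FPKM and 707, 792 and 451 FPKM in the same libraries. In high fat control, Jnk1 and Jnk2, replicate 3 was the lowest of its group for Atp5e, Ndufb4 and Ndufa7 alike, by 0.35 to 0.64 below the group mean. Replicate 3 was also the lowest in these groups for Ndufb6, Uqcrh, Ndufb9, Cox7b and Ndufb2, and for the summed FPKM of all members. In high fat Jnk1Jnk2 the values of Atp5e, Ndufb4 and Ndufa7 overlapped with those of control, and none of the 3 was called. Against Jnk1 on high fat they had changes of -0.42, -0.28 and -0.12 as deposited, and fell by 1.08, 0.76 and 0.77 with the length trend removed. Atp5e has a transcript of 421 bases, and its fall with the trend removed may be overstated, as given under the processing. The 3 members were picked for their spread, so this is a description.

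Genes of linked pathways, from lists written with the members, are given for high fat Jnk1Jnk2 against high fat control, where 19.6% of all loci rose and 31.6% fell as deposited and 16.9% and 16.2% with the length trend removed. Cyc1, the cytochrome c1 subunit of complex III whose name falls outside the rule, rose by 0.74 ± 0.14, and Cycs, cytochrome c itself, by 0.56 ± 0.15. Both held with the length trend removed. Of 15 genes of the citric acid cycle 5 rose and 3 fell as deposited, and 5 rose and 1 fell with the length trend removed. The subunits of succinyl-CoA synthetase, the step before complex II, split: the shared alpha subunit Suclg1 rose by 0.98 ± 0.10 and the GTP-specific beta subunit Suclg2 fell by 1.15 ± 0.15. Dlst, a subunit of the 2-oxoglutarate dehydrogenase, rose by 0.88 ± 0.09, and Etfb, which passes electrons from fatty acid oxidation, by 1.03 ± 0.11. These 4 changes held with the trend removed.

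Of 14 regulators of these genes, 4 rose and 6 fell as deposited, and 3 rose and 2 fell with the length trend removed, shares near those of all loci. Esrra, the estrogen-related receptor alpha, rose by 0.70 ± 0.12 and by 0.68 with the trend removed, and Tfb2m, a mitochondrial transcription factor, by 0.46 ± 0.07 and 0.49. Gabpa, the DNA-binding subunit of GABP, whose locus overlaps that of Atp5j, fell by 0.79 ± 0.10 and by 0.36. Nrf1 and Yy1 fell by 0.35 and 0.48 as deposited and had changes of -0.09 and 0.04 with the trend removed. Tfam, which packages and transcribes mitochondrial DNA, rose by 0.28 ± 0.10 and by 0.62. Of 11 complex IV assembly genes measured, 4 rose and 3 fell as deposited, and 1 rose and 4 fell with the length trend removed. Among them were Cox17, a copper chaperone, at 0.85 ± 0.16 (0.28 and not called with the trend removed) and Lrpprc, which stabilizes mitochondrial mRNAs, at -0.65 ± 0.09 (-0.29, called).

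Over the 8 group means, the other loci most like the mean of the tested members were Hagh, Psme1, Snrpd2, Aurkaip1 and Dpm3 as deposited, with Pearson correlations of 0.981 to 0.991 among 10224 loci compared. With the length trend removed they were Naprt1, Angel2, Stk19, Aldoc and Ppie, at 0.934 to 0.949 among 9878. No locus was on both lists. The mean of the members was 6.72 to 6.91 on the log2(FPKM + 1) scale in 7 groups and 7.35 in high fat Jnk1Jnk2, and with the trend removed it was 6.80 to 6.96 in 7 groups and 6.94 in high fat Jnk1Jnk2.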

How the data were processed

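RNA of mouse liver, extracted with RNeasy per the labels' protocols, was sequenced in 24 libraries, and the authors deposited 1 table of FPKM values for 31027 loci, with all 24 value columns matched to a labelled sample and 0 left over. The FPKM values were made with TopHat, Cufflinks and Cuffdiff on mm10, per the submitters' processing notes, and their versions and the strandedness of the libraries are not given in the sources used here. FPKM keeps no absolute depth, so the precision of single values is known only from the spread between the 3 libraries of a group, and relative depth was read from the steps of low values.

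From these values, log2(FPKM + 1) of the 10562 loci with a mean of at least 1 FPKM was fitted with limma 3.58.1 (R 4.3.3) in 1 model of 8 group means, with Benjamini-Hochberg adjustment over all of these loci and a call at an adjusted p under 0.05. Fold changes are on that scale and understate changes of low genes. Transcript lengths came from the annotation GENCODE M21 by symbol, for 94.4% of the tested loci and all 93 members. The length trend was removed from each library with a loess curve (span 0.5) of its deviation from the mean of all libraries against log2 length, and the model was refitted. For the shortest members this curve can take off more than loci of like length changed. In the diet by Jnk1Jnk2 interaction, Atp5e went from -0.47 to -1.04 and Ndufb6 from -0.29 to -0.87. Their like-length loci had medians of 0.45 and 0.40. Falls of such short members with the trend removed may be overstated. An exact permutation test of 3 against 3 libraries cannot go below p = 0.1, so no such test was used. Plots were drawn with matplotlib 3.10.9 and tables made in Python 3.11.15 with pandas 2.3.3, scipy 1.17.1 and numpy 2.4.6, and the code was tested on simulated data. The members, gene lists and tests were chosen with earlier results of these data known. Named were 10 subunits of the 5 complexes, the isoform pairs, and in each comparison the largest called rises and falls without overlap and calls against the members' median, on both scales. A few others are named as examples of a role. Alternatives were 2 other pseudocounts, other filters, size factors, quantile normalization, trends of length and of length with level, fits of the compared groups alone, replicate blocks, and leaving out each library. Members overlapping other loci were kept, and promoter windows of the 14 tested members without a match and the mitochondrially encoded subunits were not used here.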

Additional observations from a re-analysis of the deposited data

Results flagged for a closer look

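These results are listed because the diet effect differed between 2 genotypes by the interaction term of the limma fit. Against control livers, the diet effect of Jnk2 livers differed at 5 members, with differences of 1.22 at Cox6b2, 0.75 at Ndufc1, 0.60 at Ndufs7, 0.51 at Uqcrc1 and -0.83 at Ndufaf6, all on the log2(FPKM + 1) scale. In Cox6b2 the fall on high fat seen in control livers (1.39) stood beside a change of -0.17 in Jnk2 livers that was not called. Ndufaf6 changed from 12.6 to 14.0 FPKM on chow to 7.29 to 10.1 FPKM on high fat in Jnk2 livers, while control livers had 10.0 to 11.8 and 11.8 to 16.3 FPKM. Of these differences, that of Ndufs7 was lost in 9 of the 12 fits that leave out a library.

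The diet effect of Jnk1Jnk2 livers differed from that of control livers at 52 members. Differences were 1.76 at Cox6b2, 1.11 at Ndufb7, 1.06 at Ndufs7, 0.97 at Ndufs3, 0.84 at Ndufs8 and 0.69 at Uqcrc1, and -0.58 at Sdha. These 7 were also called, in the same direction, with the length trend removed, where 15 members were called in all. The high fat Jnk1Jnk2 libraries stand apart in summed FPKM and in their length trend.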

How the results depend on the processing

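The counts of called members in high fat Jnk1Jnk2 livers depended most on transcript length. Against control 68 became 23 with the length trend removed and 18 with length and level trends removed (chosen after seeing the data), against Jnk1 67 became 33 and 31, against Jnk2 70 became 20 and 19, between diets 71 became 19 and 20, and in the interaction 52 became 15 and 15, or 33 with quantile normalization. The median excess over loci of like length, 0.115, was 0.065 with like level required. Leaving out 1 library gave 57 to 72, 59 to 69, 59 to 76, 65 to 75 and 38 to 58 in the same order. The smaller counts moved with most choices. In control livers the diet count of 5 was 3 with no filter on level, 12 with quantile normalization, 20 with the length trend removed, 21 with both trends removed and 2 in a fit of the compared groups alone, and 2 to 14 leaving out 1 library. In Jnk1 livers the diet count of 11 was 7, 21, 26, 27 and 2 under the same settings, 19 with size factors and 2 to 25 leaving out 1 library. In Jnk2 livers the diet count of 10 was 6 with size factors, 16 with quantile normalization, 16 and 18 with trends removed, 5 in the fit of the groups alone, and 2 to 9 leaving out 1 library. The diet by Jnk2 interaction count of 5 was 12 with quantile normalization, 12 and 16 with trends removed, and 2 to 14 leaving out 1 library. High fat Jnk2 against control had 7 called, 0 in the fit of the groups alone and 2 to 12 leaving out 1 library. The 5 comparisons with 0 members called had 0 under every alternative run.

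Among the named changes of members, those that reversed, all in high fat Jnk1Jnk2 livers, were Sdhc (-0.03 with the length trend removed, -0.09 with both trends removed), Atp5g3 (-0.04 and -0.08), Atp5g1 (-0.06 with both), Cox5a (-0.03 with both), Atp5j (-0.03 with both), Atp5b (-0.04 with quantile normalization) and Ndufb6 (-0.53 and -0.60 against control, -0.50 and -0.49 against chow). Yy1 and Slc25a5, which are not members, also changed sign with the length trend removed, from -0.48 to 0.04 and from 0.31 to -0.03. The cause was not tested. Of 1426 values of 85 named changes under the alternatives, 1213 kept the call or its absence, 181 lost the call, 20 gained one and 12 reversed. A sign change counted as reversed only with a call in at least 1 of the fits compared. Changes without a call in either fit counted as kept, whatever their sign. Size factors moved the median of all loci by over 0.1 in high fat Jnk1Jnk2 against Jnk2 (-0.14 to -0.03) and between diets in Jnk2 (0.10 to -0.01). Replicate numbers showed no pairing of the samples by the rule used. In 0 of 28 pairs of groups did all 3 same-numbered correlations exceed 0.1, with values from -0.26 to 0.33. Of 24 libraries, 4 correlated best with their own number. The rule does not reach a pattern within the members, such as the low replicate 3 in high fat control, Jnk1 and Jnk2. In these groups the summed FPKM of the members was lowest in replicate 3, at 17721, 17792 and 16522. Their other libraries had sums of 19150 to 23668. In the remaining groups replicate 3 did not have the lowest sum. The source of this pattern was not tested. With the replicate block the counts were 69 for high fat Jnk1Jnk2 against control, 71 between diets in Jnk1Jnk2, 49 for its interaction, and 4, 10 and 9 between diets in control, Jnk1 and Jnk2. Cox6b2 has no value at a mean of at least 5 FPKM. Low members such as Cox6b2 and the muscle isoforms rest on few fragments, and their depth is unknown.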

Other observations

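Of 6 tested carriers that link the matrix to the cytosol, 4 rose and none fell in high fat Jnk1Jnk2 against high fat control livers as deposited, against 19.6% and 31.6% of all loci. Of the 6, 1 rose with the length trend removed, a share near the 16.9% of all loci. Ucp2, an uncoupling protein relative, had 10.9, 10.5 and 9.24 FPKM in control and 15.8, 13.3 and 22.2 FPKM in Jnk1Jnk2 libraries, with no overlap, and rose by 0.66 ± 0.16 as deposited and by 0.98 with the trend removed. Slc25a4, the ADP/ATP carrier of muscle and heart, had 3.67, 4.32 and 4.32 FPKM in control and 5.56, 7.58 and 77.0 FPKM in Jnk1Jnk2 libraries. Its highest value was in replicate 3, the library with 213 FPKM of Acta1, and its change was 1.68 ± 0.66 as deposited and not called with the trend removed. Slc25a5, the carrier made in most tissues, rose by 0.31 ± 0.10 as deposited and had a change of -0.03 with the trend removed.

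By transcript length, the members' median change in high fat Jnk1Jnk2 against control was 0.58 for the 16 members under 500 bases, where the median of 152 other loci was 0.179. Between 500 and 750 bases it was 0.619 for 29 members and 0.556 for 261 other loci. At 2000 bases and over it was 0.15 for 7 members and -0.257 for 6633 other loci. The first class has no lower bound and the last no upper bound, so lengths are not matched within them. In the last class the members were 2020 to 3632 bases long. Matched within 1.1 times its own length, a member's change was larger by a median of 0.115 over all 90 members.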
